A study of Mus musculus with 20 samples.

Results

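The genes described here are 43 macrophage and myeloid genes, a list given by gene name. They were read from RNA-seq counts of 20 libraries of mouse kidney cells. All 43 were among the 47729 genes counted, and 41 of them were among the 18731 genes tested; Timd4 and Vsig4 had too few counts for the test. The cells carried Sca-1, a membrane antigen found on many progenitor cells, were sorted from digested kidneys with magnetic beads, and are labelled as mesenchymal stem cell-like. The drug was roxadustat, an oral anemia medicine that stabilises hypoxia-inducible factor (HIF) by blocking prolyl hydroxylases. Freshly isolated cells (day 0) came from mice that had received roxadustat and from control mice, with 2 libraries of each. Cultured cells made up 4 roxadustat and 4 control libraries at day 7, and 4 roxadustat and 4 control libraries at day 21. The injections were given into the peritoneum for 7 days at 33 mg/kg, and the cultures were kept at 20% oxygen, with roxadustat in the medium of the roxadustat cultures. The same protocol text stands on every sample, so whether the cultured cells of the roxadustat arm also came from injected mice is not given there. Strain, sex and age of the mice are not given in the sources used here.

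Macrophages are phagocytes that live in most tissues, in the kidney mainly in the interstitium between tubules and vessels. The transcription factor PU.1 and the receptor for macrophage colony-stimulating factor maintain the lineage. Macrophages take up dead cells, microbes and modified lipids through scavenger and Fc receptors, digest them in lysosomes, produce an oxidative burst and secrete complement C1q. The 43 genes were grouped by these roles into lineage regulators and growth factor receptors, C1q chains, Fc receptors with their adaptors, scavenger and pattern recognition receptors, lysosome and oxidase genes, leukocyte surface and signalling genes, and genes of the cytoskeleton and of lipid mediators.

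Library depth was 8502011 to 19903160 counts, which limits the precision of the lowest members. Levels are given as CPM, a gene's counts relative to the scaled total of its library (TMM scaling). In the HIF target list, 5 of 6 tested genes were higher with roxadustat at day 0 and 6 of 6 at day 7 and day 21 (adjusted p under 0.05). The share of higher genes among all genes tested was 2.73% at day 0, 24.1% at day 7 and 30% at day 21. The control day 21 libraries lay in 2 close pairs, replicates 1 and 2 apart from 3 and 4. Scaling by library size alone moved the median log2 fold change of all genes by 0.35 at day 21, and the share of higher genes among all calls to 57.2% at day 0 and 72.5% at day 21, against 39.9% and 47.7% as reported here; no called member changed direction. The labels do not say whether libraries of a group are separate animals or cultures, so the p-values measure only the spread between these libraries, which may be technical. Each gene's spread was estimated over all 6 groups together, so the day 0 p-values rest in large part on the spread between culture libraries. The 2 control libraries of day 0 were the least alike of all pairs within a group (correlation of log CPM 0.986, against 0.989 to 0.994 in the other pairs). The macrophage genes Csf1r, Adgre1, Lyz2 and C1qa had counts in all 20 libraries. For Adgre1 these were only 2 counts each in roxadustat replicates 1 and 2 of day 7. Timd4 and Vsig4, markers of long-resident macrophages in several mouse tissues, were at or below 0.78 CPM in every library.

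The summed level of the 43 listed genes was higher in fresh cells of roxadustat mice than in fresh control cells. It was lower in roxadustat cultures than in control cultures of the same day. The day 0 difference was smaller in a list of 31 other myeloid genes, described below. These summed to 210.6 and 217.6 CPM with roxadustat, against 187.2 and 207 CPM in controls, at day 0. Of the 41 tested members, 18 were called higher with roxadustat at day 0 and lower on both culture days, 22 were not called at day 0, and Cd14 was higher at all 3 times. Over all genes tested, 2.73% were higher at day 0, 23.6% were lower at day 7 and 32.9% were lower at day 21. The share of all genes with the whole pattern was not counted. Summed over the 43 genes, the level at day 0 was 374.5 and 464.5 CPM in roxadustat libraries, against 235.1 and 250 CPM in control libraries. At day 7 the sum lay at 102.4 to 111.1 CPM in roxadustat cultures, against 857.1 to 875.7 CPM in control cultures. The day 21 sums were 80.6 to 86.7 CPM in roxadustat cultures, against 705.7 to 794.3 CPM in control cultures. The groups did not overlap at any time, and the ratio of the mean sums was 1.73-fold higher with roxadustat at day 0, 8.19-fold lower at day 7 and 9.11-fold lower at day 21. In these bulk libraries, a smaller number of macrophages and less of each RNA per macrophage cannot be told apart.

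**Figure D1:**
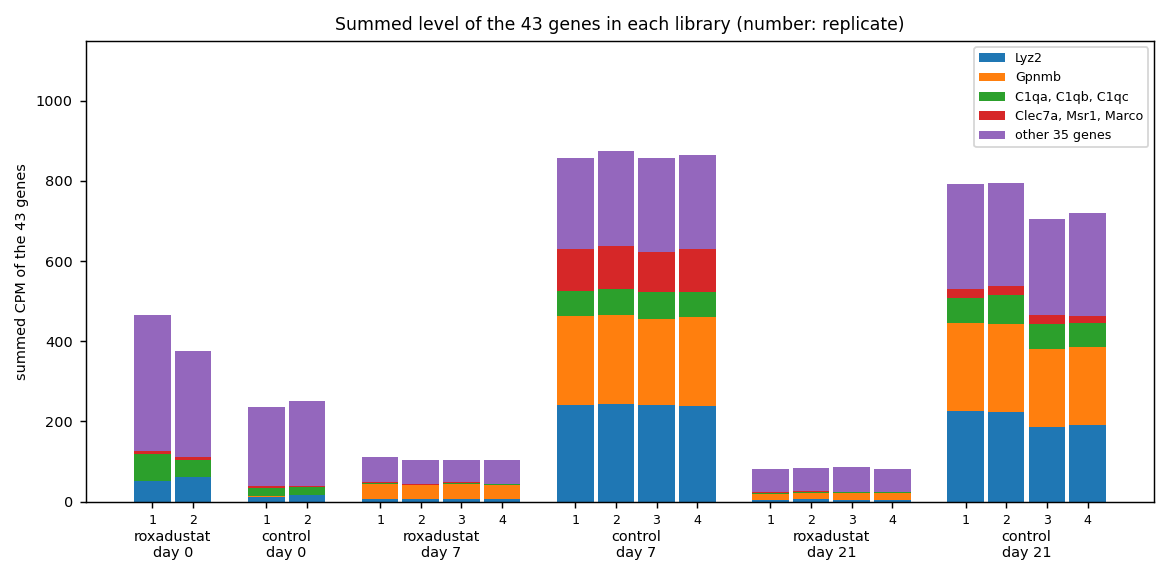
Bars of the summed CPM of the 43 members in each of the 20 libraries, with roxadustat left of control at each day and the replicate number under each bar. The stacked parts are Lyz2, Gpnmb, the C1q chains, Clec7a with Msr1 and Marco, and all remaining members. The day 7 bars reach 102.4 to 111.1 CPM in roxadustat cultures and 857.1 to 875.7 CPM in control cultures. In these control cultures Lyz2 gives 27.96% of the sum and Gpnmb 25.4%.

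Counted gene by gene (edgeR's quasi-likelihood test, Benjamini-Hochberg adjusted p under 0.05 over all genes tested), 19 of the 41 tested members were higher with roxadustat at day 0, 0 were lower and 22 did not pass. At an unadjusted p under 0.05, 25 members were higher and 1 was lower (Ptprc), and DESeq2 and limma voom also called 0 members lower. Over all genes tested, 6.83% passed in this comparison, 2.73% higher and 4.11% lower. The members' median log2 fold change was 0.77, or 0.75 with genes at 0 counts in a group set to their bound, and that of all genes tested was -0.01. In a fit on the 4 day 0 libraries alone, only 1 of the members passed (Lyz2, log2 fold change 2.04, edgeR adjusted p = 0.0124), in a comparison where 23 of 15575 genes, or 0.148%, passed. Without roxadustat replicate 1 of day 0, the fit on the other 19 libraries called 10 members higher. The 9 members called at day 0 with all libraries and without each single library in turn were Adgre1, C1qa, C1qb, C1qc, Ctss, Lyz2, Mrc1, Ms4a7 and Trem2. Without roxadustat replicate 1, the day 0 calls of Csf1r (edgeR adjusted p = 0.0515), Tyrobp (0.127), Plek (0.198), Cd84 (0.0772), Cd68 (0.141), Fcgr1 (0.264), Fcgr3 (0.327) and Msr1 (0.269) ended. Without control replicate 1, those of Cd84 (0.162), Cd68 (0.122), Fcgr1 (0.0507), Fcgr3 (0.0898), Ms4a6c (0.218) and Msr1 (0.47) ended. Without roxadustat replicate 2, those of Cd84 (0.0753), Cd68 (0.0707), Fcgr1 (0.0561), Ms4a6c (0.272) and Msr1 (0.0936) ended, and without control replicate 2 that of Fcgr1 (0.165).

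In cultures most members were lower with roxadustat. At day 7, 37 of the 41 tested members were lower with roxadustat, 1 was higher and 3 did not pass, where 47.7% of all genes passed (24.1% higher, 23.6% lower). The members' median log2 fold change was -3.67 (-3.72 with genes at 0 set to their bound), against 0.03 over all genes. At day 21, 37 members were lower, 2 higher and 2 did not pass, where 62.9% of all genes passed (30% higher, 32.9% lower); the members' median was -3.71 (-3.69 with bounds), against 0 over all genes. With each library left out in turn, 36 to 38 members were lower at day 7 and 36 to 37 at day 21, and 36 members were called lower in all of these fits at day 7, as were 36 at day 21.

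**Figure D2:**
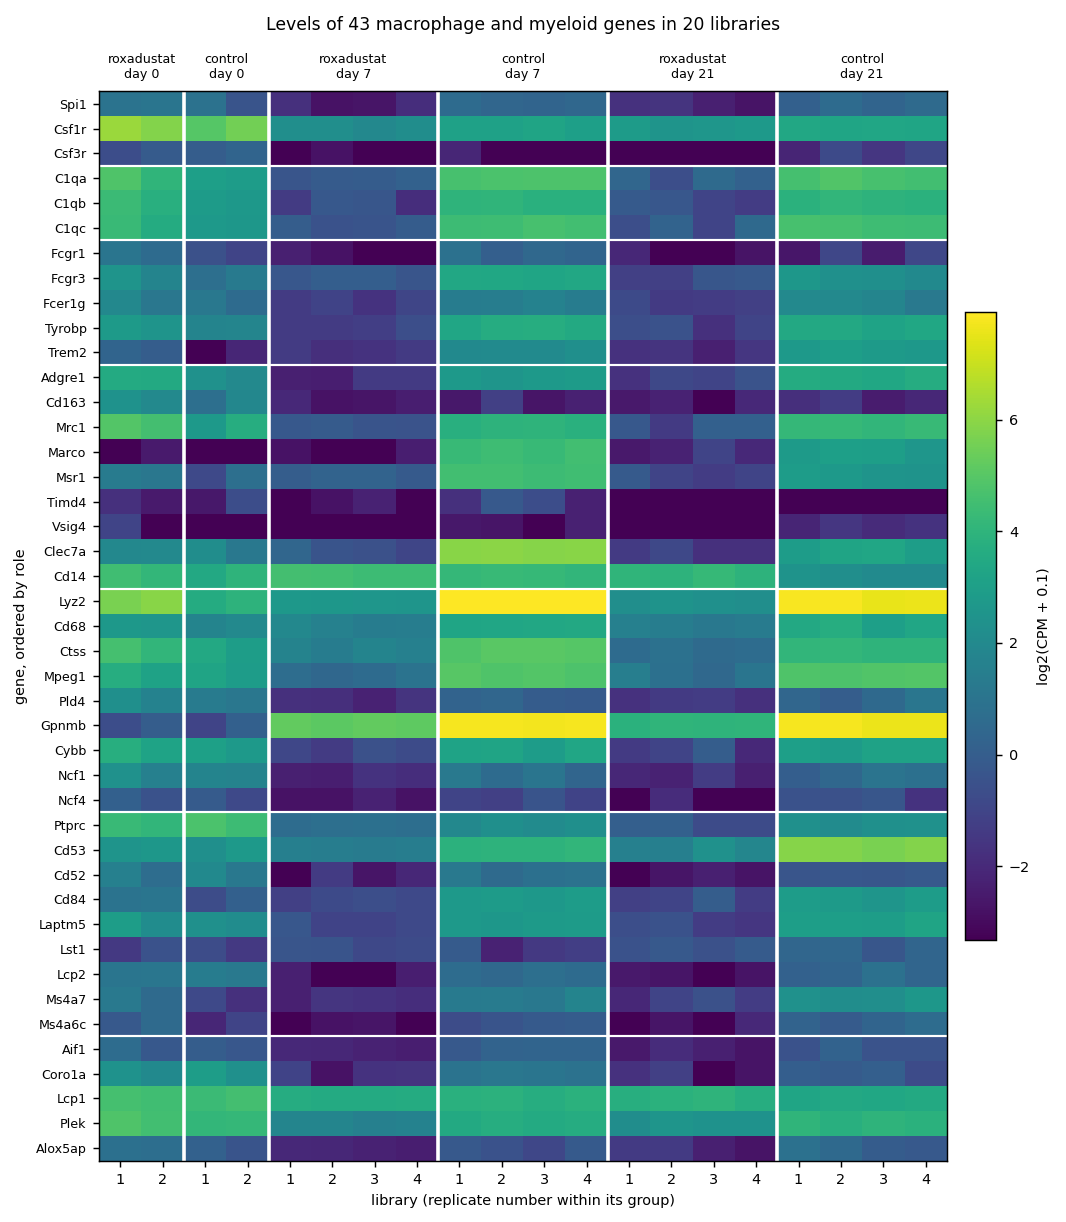
Heat map of log2(CPM + 0.1) of the 43 members (rows, ordered by role) in the 20 libraries (columns, roxadustat left of control at each day). The roxadustat cultures are dark for most members, with Cd14, Gpnmb and Lcp1 the brightest there.

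The promoters of all members with an entry were read from RefSeq (build GRCm38.p6), as the 250 bases before each gene's start. Members were not selected by their calls for this count. RefSeq promoters were matched for 32 of the 43 members. The motif AGGAAG, the core bound by PU.1 and other ETS-family factors, was searched on both strands and stood in 15 of the 32 members (46.9%), against 32.3% of 27025 genes with a promoter of the same length. Counted over promoters instead of genes, it stood in 17 of 38 (44.7%), against 29.5% of 32851. The core of the HIF response element, ACGTG, likewise on both strands, stood in 3 of the 32 members (9.38%), against 18.5% of all genes. A match is a description of the letters only, not of a bound site. The sequences below run 5′ to 3′ on the gene's strand and end at the base before the start, with AGGAAG or its reverse complement in capitals. The first 5 are members that were higher with roxadustat at day 0 and lower in cultures, picked from those with a match. Gpnmb, which rose in cultures of both arms, is shown beside them and has no match in this window.

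Lyz2, chr10:117282273-117282522, minus strand: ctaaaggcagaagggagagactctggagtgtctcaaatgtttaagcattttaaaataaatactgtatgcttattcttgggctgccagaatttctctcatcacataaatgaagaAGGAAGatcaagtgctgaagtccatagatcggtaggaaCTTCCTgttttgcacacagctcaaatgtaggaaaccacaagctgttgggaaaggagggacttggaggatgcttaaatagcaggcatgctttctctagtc

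C1qb, chr4:136886201-136886450, minus strand: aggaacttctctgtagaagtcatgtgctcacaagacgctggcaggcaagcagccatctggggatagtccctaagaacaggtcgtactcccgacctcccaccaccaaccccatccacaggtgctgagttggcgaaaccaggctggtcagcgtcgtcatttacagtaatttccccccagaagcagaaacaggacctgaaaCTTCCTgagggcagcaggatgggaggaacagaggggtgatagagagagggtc

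C1qc, chr4:136892915-136893164, minus strand: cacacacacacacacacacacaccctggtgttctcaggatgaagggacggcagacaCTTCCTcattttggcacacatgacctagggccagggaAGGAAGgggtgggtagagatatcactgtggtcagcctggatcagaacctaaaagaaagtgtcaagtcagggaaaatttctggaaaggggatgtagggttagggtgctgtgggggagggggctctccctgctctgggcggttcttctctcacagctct

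Mrc1, chr2:14229164-14229413, plus strand: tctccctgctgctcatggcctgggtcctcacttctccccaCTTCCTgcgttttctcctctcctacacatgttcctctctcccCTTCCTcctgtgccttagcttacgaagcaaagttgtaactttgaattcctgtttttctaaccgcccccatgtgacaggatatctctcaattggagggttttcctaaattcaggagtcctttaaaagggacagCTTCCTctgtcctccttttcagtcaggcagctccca

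Trem2, chr17:48346151-48346400, plus strand: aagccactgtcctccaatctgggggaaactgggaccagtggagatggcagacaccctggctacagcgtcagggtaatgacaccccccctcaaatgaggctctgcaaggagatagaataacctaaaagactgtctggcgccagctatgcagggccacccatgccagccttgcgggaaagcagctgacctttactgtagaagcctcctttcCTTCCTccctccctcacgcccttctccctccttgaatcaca

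Gpnmb, chr6:49036268-49036517, plus strand: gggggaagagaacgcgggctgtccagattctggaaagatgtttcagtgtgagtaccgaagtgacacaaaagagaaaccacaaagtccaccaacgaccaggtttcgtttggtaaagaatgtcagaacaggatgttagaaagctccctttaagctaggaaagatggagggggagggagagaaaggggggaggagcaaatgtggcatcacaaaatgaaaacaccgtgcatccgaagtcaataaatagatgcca

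In Lyz2 the matches began 137 and 99 bases before the start, in C1qb 52 bases, in C1qc 194 and 157 bases, in Mrc1 210, 168 and 36 bases and in Trem2 41 bases before it.

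Among the 3 lineage genes, Csf1r was higher with roxadustat at day 0, Csf1r and Spi1 were lower at day 7, and all 3 were lower at day 21. Csf1r (ENSMUSG00000024621) encodes the receptor for the growth factors encoded by Csf1 and Il34, on which macrophage survival depends. It had 76.5 and 57.6 CPM in fresh roxadustat libraries, against 31.4 and 47.0 CPM in fresh control libraries. At day 7, Csf1r had 4.66, 4.67, 3.70 and 4.43 CPM in roxadustat cultures, against 8.599, 8.64, 9.30 and 7.99 CPM in control cultures. The day 21 levels were 7.14, 5.55, 5.96 and 6.53 CPM with roxadustat, against 10.7, 9.66, 9.97 and 9.76 CPM in controls. No group pair overlapped. The gene was 1.71-fold higher with roxadustat at day 0 (edgeR adjusted p = 0.000463), 1.97-fold lower at day 7 (edgeR adjusted p = 6.66e-07) and 1.59-fold lower at day 21 (edgeR adjusted p = 7.69e-05). The exons of Csf1r share 15.1% of their bases with Hmgxb3, and the library kit did not mark strand, so a part of its reads is uncertain. Spi1, which encodes PU.1, averaged 0.119 ± 0.0785 CPM in roxadustat cultures and 1.25 ± 0.121 CPM in control cultures at day 7 (SD, n = 4 each), 9.79-fold lower (edgeR adjusted p = 9.15e-08). Its day 0 difference did not pass (log2 fold change 0.62 ± 0.38 SE, edgeR adjusted p = 0.409). Csf3r, the receptor for granulocyte colony-stimulating factor and mainly a neutrophil gene, had few counts, namely 0 counts over the 4 roxadustat libraries at day 21, against 19 in controls, at least 6.70-fold lower with a floor of 3 counts over the group.

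In fresh cells Spi1 had 1.85 and 1.98 CPM with roxadustat, against 1.82 and 0.658 CPM in controls. Its day 7 levels were 0.192, 0.0472, 0.0545 and 0.181 CPM with roxadustat, against 1.42, 1.23, 1.14 and 1.23 CPM in controls. Its day 21 levels were 0.204, 0.222, 0.0993 and 0.0491 CPM with roxadustat, against 0.982, 1.44, 1.12 and 1.40 CPM in controls. Spi1 lay apart in cultures, and also in fresh cells although that difference did not pass.

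The 3 C1q chains form the recognition molecule that starts the classical complement cascade. Together they were higher with roxadustat than in controls in fresh cells, and lower than in controls in cultures. C1qa, C1qb and C1qc are neighbours on chromosome 4. C1qb had 20.5 and 13.6 CPM in fresh roxadustat libraries, against 7.07 and 6.25 CPM in fresh control libraries. At day 7, C1qb (ENSMUSG00000036905) had 0.288, 0.755, 0.708 and 0.181 CPM in roxadustat cultures, against 15.8, 16.2, 13.9 and 14.2 CPM in control cultures. In cultures of day 21, C1qb had 0.816, 0.721, 0.397 and 0.295 CPM with roxadustat, against 14.5, 16.9, 15.6 and 14.6 CPM in controls. The groups lay apart on each day, and every roxadustat culture was under 1 CPM. C1qb was 2.57-fold higher with roxadustat at day 0 (edgeR adjusted p = 0.000171), 31.2-fold lower at day 7 (edgeR adjusted p = 8.91e-16) and 27.4-fold lower at day 21 (edgeR adjusted p = 9.2e-16). C1qc was 2.55-fold higher, 29.4-fold lower and 24.5-fold lower on these days, and C1qa was 25.2-fold lower at day 21. Added up, the chains averaged 55.3 CPM in roxadustat and 20.5 CPM in control libraries at day 0. In cultures they averaged 2.10 CPM with roxadustat and 64.3 CPM in controls (day 7), and 2.45 CPM with roxadustat and 63.7 CPM in controls (day 21). The ratio of C1qa to C1qb, from counts summed over the libraries of a group and not corrected for length, was 1.32 in roxadustat and 1.15 in control libraries at day 0, and 1.66 to 1.82 in the 4 culture groups.

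C1qa had 28.3 and 16.6 CPM in fresh roxadustat libraries, against 7.98 and 7.30 CPM in fresh control libraries. Cultures of day 7 held 0.672, 0.849, 0.872 and 1.04 CPM with roxadustat, against 25.1, 26.7, 27.2 and 27.6 CPM in controls. Cultures of day 21 held 1.22, 0.555, 1.39 and 1.03 CPM with roxadustat, against 24.2, 29.4, 25.4 and 22.7 CPM in controls. Roxadustat libraries of C1qa were all above the controls at day 0 and all below them in cultures. For C1qc the fresh libraries held 19.5 and 12.1 CPM with roxadustat, against 6.42 and 6.05 CPM in controls. After 7 days, C1qc had 0.912, 0.613, 0.654 and 0.859 CPM with roxadustat, against 21.2, 21.8, 24.9 and 22.7 CPM in controls. After 21 days, C1qc had 0.544, 1.11, 0.397 and 1.33 CPM with roxadustat, against 24.8, 24.2, 21.5 and 20.9 CPM in controls. C1qc followed the same order, with no overlap on any day.

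Of the 5 Fc receptor and adaptor genes, 4 were higher with roxadustat at day 0 and all 5 were lower in roxadustat cultures at day 7 and day 21. Tyrobp (ENSMUSG00000030579) encodes DAP12, an adaptor with an immunoreceptor activation motif that carries the signal of Trem2 and other receptors. It had 6.95 and 5.55 CPM in fresh roxadustat libraries, against 3.24 and 3.35 CPM in fresh control libraries. At day 7 Tyrobp had 0.288, 0.283, 0.327 and 0.542 CPM in roxadustat cultures, against 10.02, 12.5, 12.7 and 11.4 CPM in control cultures. At day 21 it had 0.544, 0.610, 0.199 and 0.393 CPM with roxadustat, against 10.9, 11.0, 9.02 and 10.4 CPM in controls. These groups did not overlap. Tyrobp was 1.90-fold higher at day 0 (edgeR adjusted p = 0.00481), 31.5-fold lower at day 7 (edgeR adjusted p = 2.79e-18) and 22.3-fold lower at day 21 (edgeR adjusted p = 1.14e-17).

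Trem2 (ENSMUSG00000023992), a lipid-sensing receptor of phagocytes, had 2 reads in fresh control cells and was highest in control cultures. Over the day 0 libraries it had 29 counts with roxadustat and 2 in controls, 15.7-fold higher after scaling for depth, with an exact 95% counting interval of 3.97 to 135.8. In cultures Trem2 had 0.288, 0.189, 0.218 and 0.271 CPM with roxadustat, against 4.01, 4.07, 4.11 and 4.77 CPM in controls, at day 7. The day 21 levels were 0.204, 0.222, 0.0993 and 0.246 CPM with roxadustat, against 6.50, 7.86, 6.86 and 6.25 CPM in controls. Every control culture stood above every other library, and Trem2 was 17.0-fold lower with roxadustat at day 7 (edgeR adjusted p = 1.42e-14) and 32.4-fold lower at day 21 (edgeR adjusted p = 9.29e-17). Fcgr3, a low-affinity receptor for immunoglobulin G, averaged 0.817 ± 0.137 CPM in roxadustat and 10.4 ± 0.444 CPM in control cultures at day 7 (SD, n = 4 each), and Fcer1g, the signalling chain shared by several Fc receptors, averaged 0.323 ± 0.0861 CPM in roxadustat and 2.69 ± 0.268 CPM in control cultures. Fcgr1, the high-affinity receptor, had 3 counts over the roxadustat libraries and 15 over the controls at day 21, 5.28-fold lower, with an exact 95% counting interval of 1.495 to 28.5. This call ended without control replicate 2 (edgeR adjusted p = 0.1), without control replicate 4 (0.078) and without roxadustat replicate 2 (0.073), and with control replicates 1 and 3 only, where its log2 fold change was -0.49.

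In fresh cells Fcgr3 had 5.49 and 3.27 CPM with roxadustat, against 1.62 and 2.37 CPM in controls. Its day 7 levels were 0.720, 0.943, 0.926 and 0.678 CPM with roxadustat, against 10.8, 10.47, 9.78 and 10.62 CPM in controls. Its day 21 levels were 0.340, 0.333, 0.695 and 0.786 CPM with roxadustat, against 6.20, 4.92, 4.79 and 4.00 CPM in controls. The Fcgr3 groups lay apart each day, and the gap was wider in cultures than in fresh cells. Fcgr1 had 1.99 and 1.44 CPM in fresh roxadustat libraries, against 0.584 and 0.395 CPM in fresh control libraries. Cultures of day 7 held 0.0960, 0.0472, 0 and 0 CPM with roxadustat, against 1.75, 0.947, 1.30 and 1.13 CPM in controls. Cultures of day 21 held 0.136, 0, 0 and 0.0491 CPM with roxadustat, against 0.0614, 0.420, 0.0798 and 0.421 CPM in controls. Groups of Fcgr1 overlapped at day 21 and not before, and few reads stand behind its culture values.

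**Figure D3:**
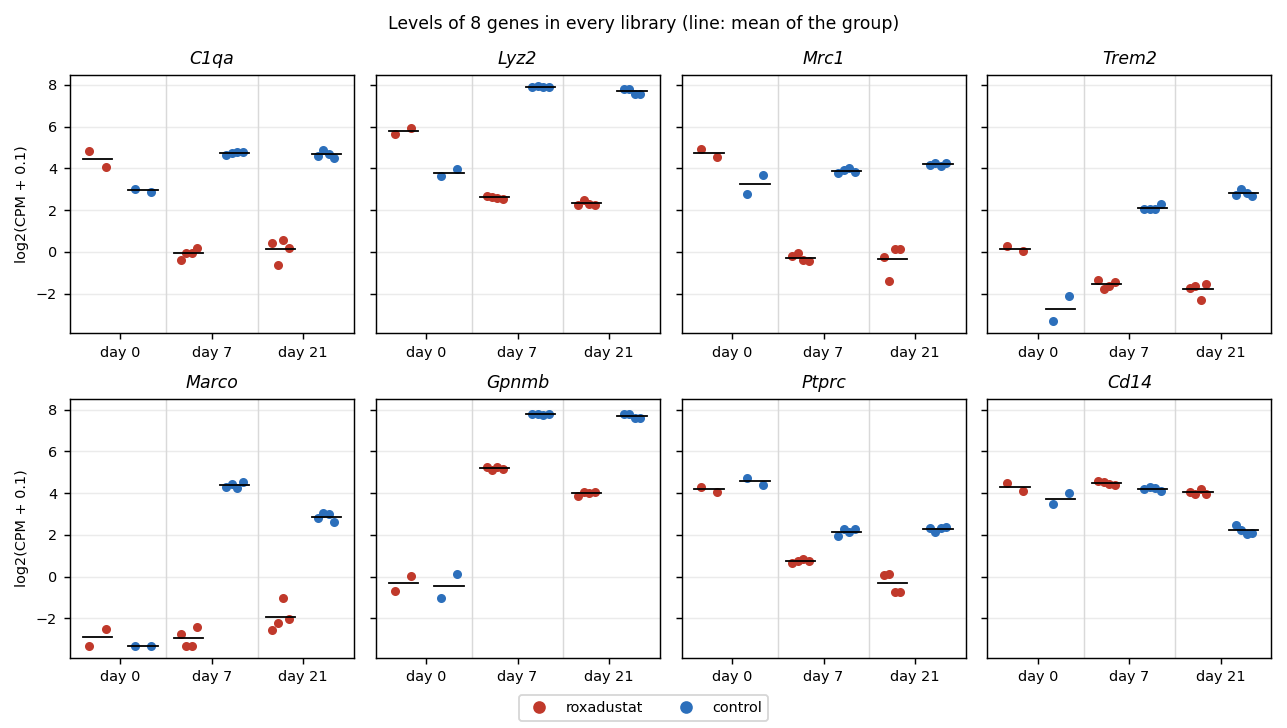
Log2(CPM + 0.1) of 8 members in each library (points) with the group mean (line), roxadustat left of control at each day. Lyz2, C1qa, Mrc1 and Trem2 stand above the controls at day 0 and below them in cultures, Marco appears only in cultures apart from 1 read, and Cd14 is above the controls at all 3 times.

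Of the 7 tested scavenger and pattern recognition receptors, 4 were higher with roxadustat at day 0. On each culture day 5 were lower and 1, Cd14, was higher. Adgre1 (ENSMUSG00000004730), which encodes the mouse macrophage marker F4/80, had 11.8 and 11.2 CPM in fresh roxadustat libraries, against 5.12 and 3.81 CPM in fresh control libraries. At day 7 Adgre1 had 0.0960, 0.0943, 0.272 and 0.271 CPM in roxadustat cultures, against 6.66, 5.79, 6.76 and 7.19 CPM in control cultures. In cultures of day 21, Adgre1 had 0.204, 0.444, 0.397 and 0.639 CPM with roxadustat, against 12.1, 11.3, 10.2 and 12.3 CPM in controls. The groups lay apart each time, 2.58-fold higher with roxadustat at day 0 (edgeR adjusted p = 3.47e-05), 34.9-fold lower at day 7 (edgeR adjusted p = 2.5e-16) and 25.6-fold lower at day 21 (edgeR adjusted p = 1.04e-17). Mrc1, the mannose receptor CD206 of tissue-resident macrophages, was 2.73-fold higher, 20.0-fold lower and 24.8-fold lower on these days. Msr1, the scavenger receptor for modified lipoproteins, was 2.19-fold higher at day 0 (edgeR adjusted p = 0.0463) and 22.7-fold lower at day 7.

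For Mrc1 the fresh libraries held 29.9 and 23.4 CPM with roxadustat, against 6.68 and 12.9 CPM in controls. After 7 days, Mrc1 had 0.768, 0.849, 0.654 and 0.633 CPM with roxadustat, against 13.6, 15.3, 16.1 and 13.8 CPM in controls. After 21 days, Mrc1 had 0.748, 0.277, 0.993 and 0.983 CPM with roxadustat, against 17.98, 18.8, 17.0 and 19.3 CPM in controls. The roxadustat libraries of Mrc1 led at day 0 and trailed in cultures, without overlap. In fresh cells Msr1 had 2.45 and 2.13 CPM with roxadustat, against 0.454 and 1.64 CPM in controls. Its day 7 levels were 0.912, 1.08, 1.09 and 0.814 CPM with roxadustat, against 23.1, 22.8, 20.7 and 22.1 CPM in controls. Its day 21 levels were 0.816, 0.388, 0.298 and 0.393 CPM with roxadustat, against 7.30, 6.54, 5.51 and 5.48 CPM in controls. Msr1 groups did not overlap, and the control cultures of day 7 were the highest libraries.

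Marco and Clec7a had the largest fold differences of all members at day 7. Clec7a (ENSMUSG00000079293) encodes dectin-1, the receptor for fungal beta-glucan. It had 3.77 and 3.88 CPM in fresh roxadustat libraries, against 4.48 and 2.17 CPM in fresh control libraries, groups that overlapped and did not pass the test. At day 7 Clec7a had 1.2, 0.660, 0.599 and 0.407 CPM with roxadustat, against 61.5, 63.1, 59.6 and 60.9 CPM in controls. At day 21 it had 0.272, 0.444, 0.199 and 0.197 CPM with roxadustat, against 7.30, 9.42, 9.89 and 7.58 CPM in controls. The culture groups did not overlap, and Clec7a was 84.8-fold lower with roxadustat at day 7 (edgeR adjusted p = 7.15e-20) and 29.2-fold lower at day 21 (edgeR adjusted p = 2.65e-14). Marco, a scavenger receptor for bacteria and particles, had 3 counts over the 4 roxadustat libraries and 1462 over the 4 controls at day 7, 570-fold lower, with an exact 95% counting interval of 194.7 to 2767. At day 21 it averaged 0.181 ± 0.148 CPM with roxadustat and 7.22 ± 0.982 CPM in controls (SD, n = 4 each). In fresh cells Marco had a single read over all 4 libraries.

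Cd14 (ENSMUSG00000051439), the co-receptor for bacterial lipopolysaccharide, was higher with roxadustat at each time. It had 21.97 and 17.2 CPM in fresh roxadustat libraries, against 11.0 and 16.1 CPM in fresh control libraries. At day 7 Cd14 had 23.6, 23.0, 21.2 and 20.7 CPM with roxadustat, against 17.97, 19.2, 18.5 and 16.8 CPM in controls. The day 21 levels were 16.2, 15.2, 18.3 and 15.4 CPM with roxadustat, against 5.46, 4.56, 4.07 and 4.14 CPM in controls. The groups did not overlap at any time. In control cultures Cd14 was 3.95-fold lower at day 21 than at day 7 (edgeR adjusted p = 4.09e-14), and in roxadustat cultures 1.37-fold lower (edgeR adjusted p = 0.000285). Cd14 was 1.45-fold higher at day 0 (edgeR adjusted p = 0.0228), 1.22-fold higher at day 7 (edgeR adjusted p = 0.015) and 3.52-fold higher at day 21 (edgeR adjusted p = 2.72e-13). The call at day 0 ended without control replicate 1 (edgeR adjusted p = 0.313) or roxadustat replicate 1 (0.394), and that at day 7 without control replicate 4 (0.0561) or roxadustat replicate 1 (0.05). Cd163, the hemoglobin scavenger receptor, did not pass at any time: it averaged 4.51 ± 1.01 CPM in roxadustat and 2.59 ± 1.36 CPM in control libraries at day 0 (SD, n = 2 each) and was at or below 0.334 CPM in every culture.

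Of the 9 lysosome, microbe-killing and oxidase genes, 3 were higher with roxadustat at day 0 (Lyz2, Cd68 and Ctss), and all 9 were lower in roxadustat cultures at day 7 and at day 21. Lyz2 (ENSMUSG00000069516), the lysozyme of macrophages and neutrophils, had 6.29, 6.08, 5.88 and 5.74 CPM in roxadustat cultures at day 7, against 242, 244, 241 and 238 CPM in control cultures. In cultures of day 21, Lyz2 had 4.69, 5.44, 4.87 and 4.67 CPM with roxadustat, against 225, 223, 187 and 192 CPM in controls. Fresh libraries held 50.5 and 61.0 CPM with roxadustat, against 12.2 and 15.3 CPM in controls. The groups stood apart at each time, and Lyz2 was 41.9-fold lower with roxadustat at day 21 (edgeR adjusted p = 7.17e-27). Its close copy Lyz1 had 3 to 27 counts per group, and how reads of the copies were split is uncertain.

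Gpnmb (ENSMUSG00000029816), a lysosomal glycoprotein raised in lipid-loaded macrophages and also made by other cell types, was higher in cultures of both arms than in fresh cells. It had 0.529 and 0.912 CPM in fresh roxadustat libraries, against 0.389 and 0.987 CPM in fresh control libraries, overlapping groups that did not pass. At day 7 Gpnmb had 37.7, 33.96, 38.0 and 35.3 CPM with roxadustat, against 221, 222, 215 and 221 CPM in controls. At day 21 it had 14.5, 16.3, 16.1 and 16.6 CPM with roxadustat, against 220.2, 221, 193 and 195 CPM in controls. Both arms stood far above fresh cells, and Gpnmb was 6.07-fold lower with roxadustat at day 7 (edgeR adjusted p = 7.56e-22) and 13.1-fold lower at day 21 (edgeR adjusted p = 3.37e-25).

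The lysosomal protease cathepsin S gene, Ctss, averaged 20.7 ± 5.58 CPM in roxadustat and 9.23 ± 2.27 CPM in control libraries at day 0 (SD, n = 2 each). At day 7 Ctss averaged 2.98 ± 0.334 CPM with roxadustat and 31.3 ± 2.32 CPM in controls (SD, n = 4 each), 10.5-fold lower (edgeR adjusted p = 1.18e-18). Cd68, a lysosomal glycoprotein used as a general macrophage marker, differed less, at 2.97 ± 0.522 CPM with roxadustat, against 10.3 ± 0.519 CPM in controls, 3.45-fold lower. Mpeg1, a pore-forming protein that attacks engulfed bacteria, was 19.4-fold lower at day 7 and 14.8-fold lower at day 21, with no call at day 0. Cybb, Ncf1 and Ncf4, subunits of the phagocyte NADPH oxidase, likewise had no call at day 0. In roxadustat cultures at day 7 Cybb was 19.7-fold lower (edgeR adjusted p = 6.8e-15), Ncf1 was 11.1-fold lower and Ncf4 was 6.55-fold lower. Pld4, an endolysosomal nuclease, was 5.30-fold lower at day 7 and 5.59-fold lower at day 21.

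Ctss had 24.7 and 16.8 CPM in fresh roxadustat libraries, against 10.8 and 7.63 CPM in fresh control libraries. Cultures of day 7 held 3.21, 2.55, 3.27 and 2.89 CPM with roxadustat, against 28.2, 33.4, 32.7 and 30.8 CPM in controls. Cultures of day 21 held 1.43, 1.72, 1.39 and 1.47 CPM with roxadustat, against 16.9, 17.6, 15.6 and 15.7 CPM in controls. No day showed an overlap for Ctss, and the control cultures of day 7 were highest. For Cd68 the fresh libraries held 6.22 and 6.004 CPM with roxadustat, against 3.31 and 3.88 CPM in controls. After 7 days, Cd68 had 3.69, 3.02, 2.56 and 2.62 CPM with roxadustat, against 9.76, 9.92, 10.6 and 10.8 CPM in controls. After 21 days, Cd68 had 2.85, 2.61, 2.19 and 2.505 CPM with roxadustat, against 10.9, 12.8, 8.14 and 9.97 CPM in controls. Cd68 groups stood apart each day. In fresh cells Mpeg1 had 12.6 and 8.74 CPM with roxadustat, against 9.41 and 7.37 CPM in controls. Its day 7 levels were 1.54, 1.27, 1.42 and 1.85 CPM with roxadustat, against 31.9, 28.5, 30.6 and 27.9 CPM in controls. Its day 21 levels were 2.72, 1.66, 1.29 and 1.97 CPM with roxadustat, against 28.8, 27.6, 29.5 and 29.8 CPM in controls. Mpeg1 groups overlapped in fresh cells and lay far apart in cultures.

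Of the 9 leukocyte surface and signalling genes, several of which lymphocytes also use, 3 were higher with roxadustat at day 0 and 8 were lower at day 7 and at day 21. Their sum was 36.0 and 42.6 CPM in fresh roxadustat libraries, against 37.9 and 44.2 CPM in fresh control libraries, and these groups overlapped. Ptprc (ENSMUSG00000026395), the pan-leukocyte phosphatase CD45, had 19.6 and 16.7 CPM in fresh roxadustat libraries, against 26.4 and 20.9 CPM in fresh control libraries. The day 0 difference of Ptprc did not pass (log2 fold change -0.38 ± 0.15 SE, edgeR adjusted p = 0.148), although the libraries did not overlap. At day 7 Ptprc was 2.75-fold lower with roxadustat (edgeR adjusted p = 9.5e-09) and at day 21 6.35-fold lower (edgeR adjusted p = 1.36e-12).

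Cd53 (ENSMUSG00000040747), a leukocyte tetraspanin, was higher in control cultures at day 7 than in fresh cells and higher again at day 21. It had 5.49 and 6.08 CPM in fresh roxadustat libraries, against 4.80 and 6.45 CPM in fresh control libraries. At day 7 Cd53 had 2.83, 2.59, 2.45 and 2.62 CPM with roxadustat, against 14.7, 15.5, 15.5 and 16.8 CPM in controls. The day 21 levels were 2.92, 2.77, 5.07 and 3.49 CPM with roxadustat, against 59.8, 58.1, 50.7 and 56.9 CPM in controls. Fresh groups overlapped and culture groups did not, with Cd53 5.95-fold lower at day 7 (edgeR adjusted p = 3.72e-16) and 16.4-fold lower at day 21 (edgeR adjusted p = 5.99e-22). Ms4a7, a membrane protein of macrophages and microglia, was 5.50-fold higher with roxadustat at day 0 (edgeR adjusted p = 0.000815) and 13.7-fold lower at day 7. Cd84, a self-binding adhesion receptor of leukocytes, was 2.53-fold higher at day 0 and 15.1-fold lower at day 7. Laptm5, a lysosomal membrane protein of blood cells, was 13.6-fold lower at day 7, Cd52, a short glycoprotein of leukocytes, was 13.8-fold lower, and Lcp2, the adaptor SLP-76, was 26.2-fold lower; none of the 3 was called at day 0. Lst1, a transmembrane adaptor of leukocytes, did not pass at any time and averaged 0.705 ± 0.119 CPM in roxadustat and 1.10 ± 0.256 CPM in control cultures at day 21 (SD, n = 4 each). The exons of Ms4a6c share 53.1% of their bases with BE692007, those of Cd52 14.5%, of Alox5ap 13.3% and of Ncf1 11.1% with other genes, so a part of their reads is uncertain.

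Ms4a7 had 2.25 and 1.37 CPM in fresh roxadustat libraries, against 0.454 and 0.197 CPM in fresh control libraries. Cultures of day 7 held 0.0960, 0.236, 0.218 and 0.181 CPM with roxadustat, against 2.39, 2.45, 2.16 and 3.33 CPM in controls. Cultures of day 21 held 0.136, 0.388, 0.596 and 0.295 CPM with roxadustat, against 5.03, 4.499, 4.63 and 6.04 CPM in controls. Ms4a7 was higher in each fresh roxadustat library than in each control, and lower in each roxadustat culture. For Cd84 the fresh libraries held 1.85 and 1.98 CPM with roxadustat, against 0.519 and 0.987 CPM in controls. After 7 days, Cd84 had 0.336, 0.472, 0.545 and 0.452 CPM with roxadustat, against 6.66, 7.19, 6.38 and 7.35 CPM in controls. After 21 days, Cd84 had 0.340, 0.388, 0.894 and 0.295 CPM with roxadustat, against 7.42, 6.90, 5.67 and 7.37 CPM in controls. The same order held for Cd84, again without overlap. In fresh cells Laptm5 had 7.55 and 4.33 CPM with roxadustat, against 4.87 and 4.34 CPM in controls. Its day 7 levels were 0.720, 0.377, 0.381 and 0.452 CPM with roxadustat, against 6.79, 6.07, 6.92 and 7.03 CPM in controls. Its day 21 levels were 0.544, 0.610, 0.298 and 0.246 CPM with roxadustat, against 7.92, 7.92, 7.50 and 9.34 CPM in controls. Laptm5 overlapped in fresh cells and was lower in every roxadustat culture. Ms4a6c had 0.794 and 1.37 CPM in fresh roxadustat libraries, against 0.130 and 0.395 CPM in fresh control libraries. Cultures of day 7 held 0, 0.0472, 0.0545 and 0 CPM with roxadustat, against 0.517, 0.669, 0.811 and 0.858 CPM in controls. Cultures of day 21 held 0, 0.0555, 0 and 0.147 CPM with roxadustat, against 1.10, 0.840, 1.12 and 1.47 CPM in controls. Ms4a6c stayed at or below 1.47 CPM, and its groups lay apart each day.

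Of the 5 cytoskeleton and lipid mediator genes, 1 (Plek) was higher with roxadustat at day 0, all 5 were lower at day 7, and at day 21 4 were lower and 1 (Lcp1) higher. Lcp1 (ENSMUSG00000021998), the actin-bundling protein plastin-2, had 12.5, 11.5, 11.8 and 11.9 CPM in roxadustat cultures at day 7, against 14.0, 15.2, 12.8 and 14.6 CPM in control cultures. In cultures of day 21, Lcp1 had 13.2, 14.6, 15.9 and 12.9 CPM with roxadustat, against 9.76, 11.0, 10.4 and 11.2 CPM in controls. Roxadustat libraries lay below all controls at day 7 and above all controls at day 21, 1.19-fold lower (edgeR adjusted p = 0.0154) and then 1.33-fold higher (edgeR adjusted p = 0.000238). The day 7 call of Lcp1 ended when libraries were scaled by their size alone (edgeR adjusted p = 0.0812) and without control replicate 2 (0.0601). Plek, a protein kinase C substrate of platelets and leukocytes, was 1.46-fold higher at day 0, 3.76-fold lower at day 7 and 2.88-fold lower at day 21. Coro1a, an actin regulator of leukocytes, averaged 0.219 ± 0.138 CPM in roxadustat and 1.93 ± 0.146 CPM in control cultures at day 7 (SD, n = 4 each), and Aif1, the calcium-binding marker IBA1, averaged 0.121 ± 0.0260 CPM in roxadustat and 1.04 ± 0.175 CPM in control cultures. Alox5ap, which presents arachidonic acid to the lipoxygenase that starts leukotriene synthesis, was 5.13-fold lower at day 7 and 6.60-fold lower at day 21.

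For Plek the fresh libraries held 28.4 and 23.2 CPM with roxadustat, against 17.5 and 17.9 CPM in controls. After 7 days, Plek had 3.41, 3.35, 2.89 and 3.12 CPM with roxadustat, against 11.2, 12.8, 11.6 and 12.6 CPM in controls. After 21 days, Plek had 4.49, 5.83, 5.17 and 5.31 CPM with roxadustat, against 16.4, 13.4, 16.1 and 14.4 CPM in controls. Plek groups did not overlap on any day, and every culture of either arm lay below every fresh library.

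The difference between the drug effect in cultures and in fresh cells was tested as an interaction, with the effect of each day taken within that day. Between day 7 and day 0, 36 of the 41 tested members had a lower effect at day 7, 0 a higher effect and 5 did not pass (0 higher also at an unadjusted p under 0.05, with DESeq2 and with limma voom), where 28.9% of all genes passed (15.5% higher, 13.4% lower). The members' median difference in log2 fold change was -4.15, against 0.05 over all genes. Among these 36 were all 18 members that were higher with roxadustat at day 0 and lower at both culture times. Those 18 were picked by calls of opposite sign in the same libraries, which nearly fixed their place among the 36. For Adgre1 the difference was -6.49 ± 0.32 (SE) on the log2 scale (edgeR adjusted p = 6.2e-15), for C1qc -6.23 ± 0.28 (edgeR adjusted p = 4.4e-15) and for Csf1r -1.75 ± 0.19 (edgeR adjusted p = 4.92e-08). The Marco difference rests on the single read in fresh roxadustat cells, and ended without that library (edgeR adjusted p = 1). Those of Trem2, Fcgr1 and Ms4a6c rest on groups with 2 or 3 counts.

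**Figure D4:**
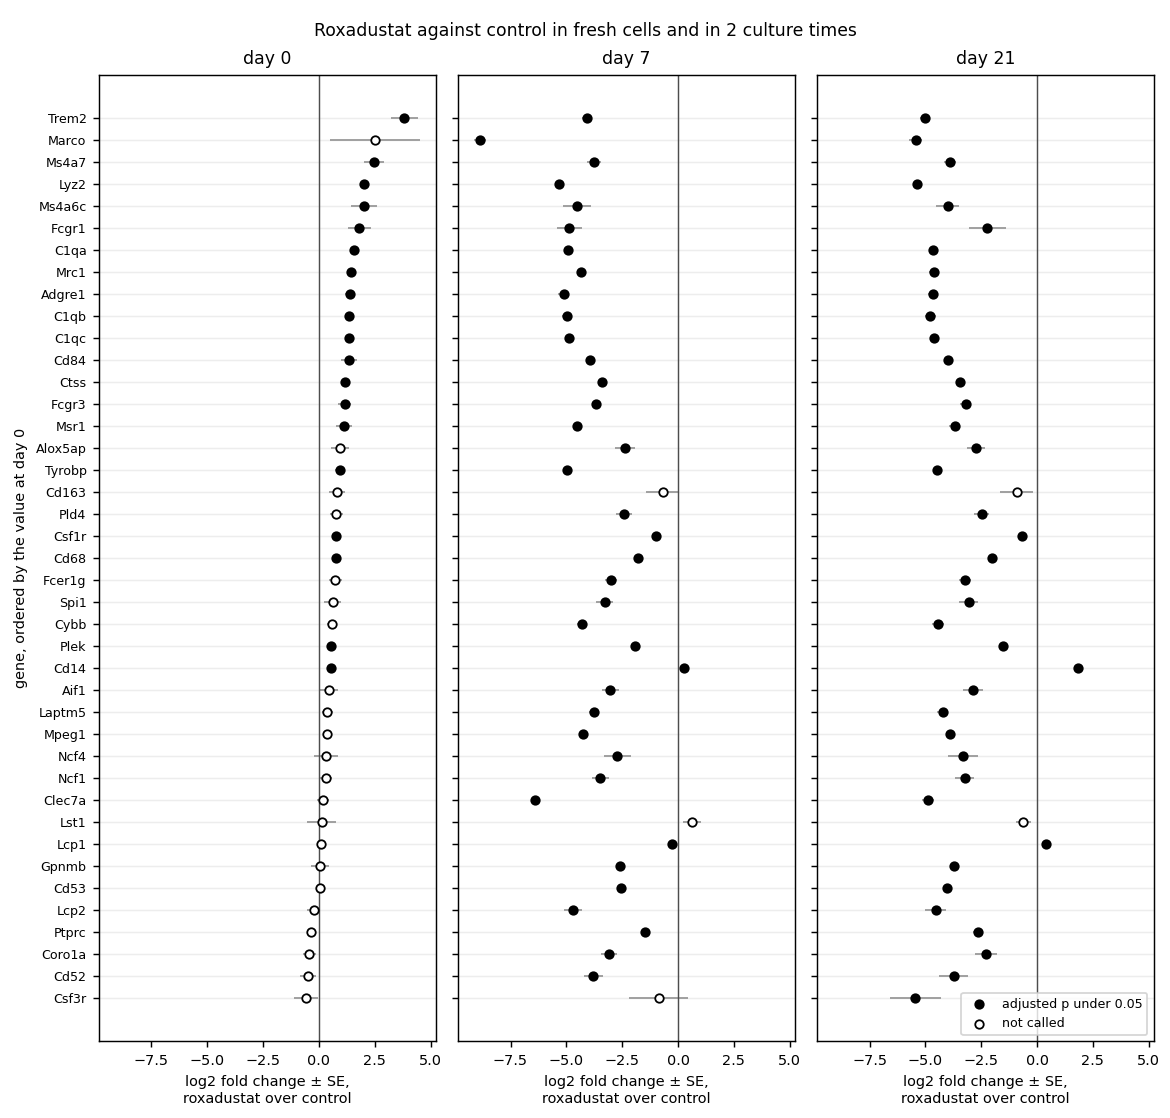
Log2 fold change of roxadustat over control (x axis, bars of 1 SE) for each tested member (y axis, ordered by the day 0 value), in 1 panel per day, with filled points for an edgeR adjusted p under 0.05. Most points lie above 0 at day 0 and below 0 at day 7 and day 21, and Cd14 is filled above 0 in all 3 panels.

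The day 21 effect was set against that of day 0 in the same way: 37 members had a lower effect at day 21, 1 a higher effect (Cd14, 1.27 ± 0.19 SE on the log2 scale, edgeR adjusted p = 3.47e-06) and 3 did not pass, where 44.3% of all genes passed (21.9% higher, 22.4% lower). Between day 21 and day 7 the effect was higher for 5 members, lower for 3 and did not pass for 33, where 44.8% of all genes passed (20.9% higher, 23.8% lower). The 5 higher were Marco, Clec7a, Cd14, Lcp1 and Plek, and the 3 lower were Gpnmb, Ptprc and Cd53. For Cd53 the difference was -1.46 ± 0.18 (SE, edgeR adjusted p = 8.9e-08) and for Cd14 1.53 ± 0.16 (SE, edgeR adjusted p = 4.28e-09). That of Plek (0.38 ± 0.15 SE, edgeR adjusted p = 0.04) ended without control replicate 2 or 4 of day 7 or of day 21, without roxadustat replicate 3 or 4 of day 7 and without roxadustat replicate 2, 3 or 4 of day 21 (edgeR adjusted p = 0.0503 to 0.103). That of Marco rests on 3 counts in the roxadustat cultures of day 7, and that of Clec7a ended without roxadustat replicate 2 of day 21 (edgeR adjusted p = 0.163). These 3 comparisons share libraries with one another and with the comparisons within each day.

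Within the control arm the summed level was 3.56-fold higher at day 7 than at day 0, with some members rising and others falling. At day 7, 24 of the 41 tested members were higher than at day 0, 11 lower and 6 did not pass, where 76.5% of all genes passed (37% higher, 39.5% lower); the median log2 fold change was 0.58. All C1q chains (3 of 3), all Fc and adaptor genes (5 of 5) and 6 of 7 tested scavenger receptors were higher. Gpnmb was 317-fold higher (edgeR adjusted p = 2.82e-26), Msr1 21.1-fold higher (edgeR adjusted p = 1.39e-15) and Clec7a 18.4-fold higher (edgeR adjusted p = 2.01e-16). Marco, with 0 counts at day 0, was at least 212-fold higher at day 7, with a floor of 3 counts over the day 0 group. Cd163 was 17.4-fold lower (edgeR adjusted p = 3.31e-09), Ptprc 5.38-fold lower (edgeR adjusted p = 2.54e-15) and Csf1r 4.54-fold lower (edgeR adjusted p = 6.95e-15). Between day 21 and day 7 in controls, 9 members were higher and 11 lower, where 68.7% of all genes passed (34.5% higher, 34.3% lower). Cd53 was 3.60-fold higher at day 21 (edgeR adjusted p = 4.4e-16), whereas Clec7a was 7.18-fold lower (edgeR adjusted p = 4.13e-16) and Msr1 3.55-fold lower (edgeR adjusted p = 4.43e-12).

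In the roxadustat arm, 37 of the 41 tested members were lower at day 7 than at day 0, 1 was higher and 3 did not pass, where 74.6% of all genes passed (37.1% higher, 37.6% lower); the median log2 fold change was -3.59. The 1 higher member was Gpnmb, 50.6-fold (edgeR adjusted p = 1.69e-21). Adgre1 was 61.1-fold lower (edgeR adjusted p = 1.77e-18), Csf1r 15.3-fold lower (edgeR adjusted p = 1.68e-20) and Lyz2 9.27-fold lower (edgeR adjusted p = 9.56e-22). Between day 21 and day 7, 6 members were higher and 7 lower with roxadustat, where 61.5% of all genes passed (28.6% higher, 32.9% lower). Adgre1 was 2.37-fold higher at day 21 (edgeR adjusted p = 0.00948) from a low level, and Gpnmb was 2.28-fold lower (edgeR adjusted p = 1.1e-12).

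The make-up of the summed myeloid level, in CPM not corrected for length, is given for each group. In roxadustat cultures at day 7, Gpnmb gave 34.4%, Cd14 21% and Lcp1 11.3%. In control cultures of that day Lyz2 gave 27.96% of the sum and Gpnmb 25.4%, with Clec7a next at 7.09%. At day 21 Cd14 gave 19.7%, Gpnmb 19.2% and Lcp1 17.1% in roxadustat cultures. Control cultures of day 21 had 27.5% from Gpnmb and 27.4% from Lyz2, with Cd53 next at 7.49%. At day 0 Csf1r led in both arms, with 15.9% in roxadustat and 16.1% in control libraries, followed by Lyz2 with 13.6% in roxadustat and by Ptprc with 9.78% in controls. Per kilobase of exon, which allows levels of different genes to be compared, Lyz2 had the highest level of the members at day 0 in both arms (42.4 CPM per kb with roxadustat, 10.46 in controls) and in control cultures (183.5 at day 7, 157 at day 21). In roxadustat cultures that place was held by Cd14, with 12.8 CPM per kb at day 7 and 9.404 at day 21. The ratio of Ptprc to C1qa, from counts summed over the libraries of a group, not corrected for length and so only to be set between groups, was 0.80 in roxadustat and 3.09 in control libraries at day 0. In cultures it was 1.85 with roxadustat and 0.164 in controls (day 7), and 0.746 with roxadustat and 0.186 in controls (day 21).

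Other myeloid genes, a list of 31 with 29 tested, were measured beside the members. With roxadustat, 2 were higher at day 0 (Siglec1 and Folr2), 26 were lower at day 7, and at day 21 26 were lower and 2 higher (Irf8 and Fgr). Among the members, 19 of 41 tested were higher at day 0, so the day 0 calls of the members were not shared by most of this list. Of 7 tested growth factor, receptor and chemokine genes of myeloid cells, 4 were lower with roxadustat at day 7, and at day 21 4 were lower and 2 higher. Among all genes tested, 2.73% were higher at day 0 and 23.6% lower at day 7. At day 21 32.9% of them were lower and 30% higher. Csf1, the ligand of Csf1r, did not pass at day 7 (log2 fold change 0.09 ± 0.09 SE, edgeR adjusted p = 0.46) and was lower with roxadustat at day 21 (-0.37 ± 0.09 SE, edgeR adjusted p = 0.00124). Il34, the other ligand of Csf1r, was higher at day 21 (2.68 ± 0.14 SE, edgeR adjusted p = 1.87e-12), and Ccl2, a chemokine that recruits monocytes, was lower at day 7 (-1.85 ± 0.21 SE, edgeR adjusted p = 7.71e-07) and at day 21 (-2.68 ± 0.27 SE, edgeR adjusted p = 8.36e-08).

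Markers of other cell types moved with the groups as well, and their part in the results on the members was not tested. For the counts of called genes below, the shares among all genes tested were 2.73% higher and 4.11% lower at day 0. These shares were 24.1% higher and 23.6% lower at day 7, and 30% higher and 32.9% lower at day 21. The 9 fibroblast genes summed to 1478 and 2471 CPM in fresh roxadustat libraries, against 261.8 and 444.7 CPM in fresh control libraries. The largest part was the collagen gene Col3a1, with 13865 and 20905 counts with roxadustat, against 1770 and 2604 in controls. Not all of the list was higher in fresh roxadustat cells. Pdgfrb had 60 and 80 counts with roxadustat, against 97 and 92 in controls, and Thy1 had 24 and 21, against 54 and 23. At day 21 the 9 genes summed to 2514 to 3756 CPM with roxadustat, against 47160 to 50420 CPM in controls, with 9 of 9 lower. The 7 general epithelial genes summed to 470.7 to 492.8 CPM in roxadustat cultures at day 7, against 204.9 to 216.7 CPM in control cultures, with 7 of 7 higher. Dendritic cell genes summed to 8.11 to 9.36 CPM with roxadustat, against 25.9 to 26.9 CPM in controls, at day 7, with 3 of 8 tested lower. Zbtb46 and Itgax made up most of that control sum, with 280 to 334 and 118 to 169 counts per control library, whereas Flt3, Clec9a, Cd209a, Siglech and Ccr7 had 0 to 2 counts in every day 7 library of both arms. The 10 genes of erythroid cells and platelets summed to 108.9 and 118 CPM in fresh roxadustat libraries, against 52.6 and 62.7 CPM in fresh control libraries, with 3 of 8 tested higher and 0 lower. Most of that sum was Hbb-bs, a beta-globin gene of red cells whose reads cannot be told fully from those of its near copy Hbb-bt, with 1040 and 1038 counts with roxadustat, against 478 and 561 counts in controls. Of 12 neutrophil genes, which include no member, the sum was 3.57 and 4.18 CPM in fresh roxadustat libraries, against 5.77 and 9.01 CPM in fresh control libraries, and Ly6g had 0 counts in all 4. The 15 T and NK cell genes summed to 4.71 and 5.03 CPM with roxadustat, against 8.68 and 17.9 CPM in controls, at day 0. Endothelial genes summed to 165.3 and 170.7 CPM with roxadustat, against 272 and 309.4 CPM in controls, at day 0, with 9 of 12 lower. Ly6a, which encodes the Sca-1 used for sorting, was higher with roxadustat at day 0 (log2 fold change 0.40, edgeR adjusted p = 0.00416), day 7 (1.62, edgeR adjusted p = 1.18e-17) and day 21 (1.504, edgeR adjusted p = 8.44e-18).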

How the data were processed

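Counts of reads per gene were deposited by the authors for each library, made with bcl2fastq, STAR 2.5.2a and featureCounts 1.5.0-p1 on mm10, per the submitters' processing notes; the annotation release is not given in the sources used here. The kit was not stranded, per the labels' protocols. Gene names came from GENCODE M21 (47224 of 47729 identifiers matched). Genes with enough counts (filterByExpr) were fitted with edgeR 4.0.16 (R 4.3.3; TMM scaling, robust quasi-likelihood dispersions) in 1 model of 6 groups over 20 libraries. The p-values were adjusted by Benjamini-Hochberg over all genes tested. SEs were derived from the log2 fold change and its F statistic. Alternatives were DESeq2 1.42.0, limma 3.58.1 (voom), other scalings, filters and thresholds, a replicate block and each library left out. Same-numbered libraries of a day did not deviate together (10 pairs, correlation -0.18 to 0.06), so the numbers were not treated as pairs. The model was also run on simulated counts, with planted changes and the same dispersion of a gene in every group. That run cannot show how the model does where fresh libraries vary more than cultures. The members, lists and role groups were chosen with earlier results of these data known. All members could be named; values per library went to those with the smallest p per role at day 0 and day 7, to members called against the majority and to members of opposite sign at day 0 and day 7. Counting intervals and floors cover counting error only.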

Additional observations from a re-analysis of the deposited data

Results flagged for a closer look

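The roxadustat effect differed between day 7 and day 0, by the interaction test, for all 18 members that were higher with roxadustat in fresh cells and lower in cultures. These 18 were picked by calls of opposite sign in the same libraries, so that choice nearly fixed the outcome, and only the sizes are informative. On the log2 scale the difference, day 7 minus day 0, was -1.75 for Csf1r, -6.50 for C1qa, -6.33 for C1qb, -6.23 for C1qc, -6.67 for Fcgr1, -4.81 for Fcgr3, -5.90 for Tyrobp, -7.92 for Trem2 and -6.49 for Adgre1. It was -5.77 for Mrc1, -5.63 for Msr1, -7.34 for Lyz2, -2.55 for Cd68, -4.57 for Ctss, -5.26 for Cd84, -6.24 for Ms4a7, -6.52 for Ms4a6c and -2.45 for Plek. Between day 21 and day 7 the effect differed by 3.44 for Marco, 1.54 for Clec7a, 1.53 for Cd14, 0.66 for Lcp1, 0.38 for Plek, -1.10 for Gpnmb, -1.21 for Ptprc and -1.46 for Cd53. Between day 21 and day 0 the effect on Cd14 differed by 1.27. The day 7 minus day 0 values of Trem2, Fcgr1 and Ms4a6c rest on groups with 2 or 3 counts. The Marco value rests on 3 counts in the roxadustat cultures of day 7.

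Single libraries stood apart from the other 3 of their group in 13 of 196 groups of 4 tested. The cut used gives about 1 in 20 by chance for normally distributed values. That rate does not hold for genes near 0 counts, where a lone read among zeros is always flagged. The sums also repeat the single genes, so the 13 cannot be set against it. Control replicate 4 of day 7 held the highest summed level of leukocyte surface and signalling genes, 43.7 CPM, and the highest Trem2, 4.77 CPM. Control replicate 3 of day 7 held the lowest Gpnmb, 214.8 CPM, and the highest Ncf4, 0.649 CPM. Control replicate 1 of day 7 held the lowest Aif1, 0.776 CPM, and the only Csf3r reads of its group, 0.129 CPM. Among roxadustat cultures of day 7, replicate 2 held the only Csf3r read (0.0472 CPM), replicate 4 the highest Tyrobp (0.542 CPM) and replicate 3 the highest Ncf4 (0.109 CPM). Among those of day 21, replicate 2 held the only Ncf4 reads (0.166 CPM) and replicate 3 the highest Cd84 (0.894 CPM). Among controls of day 21, replicate 3 held the lowest Lst1 (0.718 CPM) and replicate 2 the highest Aif1 (1.08 CPM).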

How the results depend on the processing

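Of 5197 values of single genes under the alternatives, 0 changed sign while called, 93 lost their call and 28 gained one. The settings with an adjusted p under 0.01 or at 2-fold or more reuse the values of the main fit, so they could change no sign and gain no call. Of 404 counts of members, 373 stayed within 1.5 times. With library size alone, 2 members were higher for day 21 minus day 0, 8 higher for day 21 minus day 7, 6 lower in controls at day 7 against day 0 and 2 higher with roxadustat at day 7 against day 0. Upper-quartile scaling gave 2 higher for day 21 minus day 0 and 2 higher with roxadustat at day 7 against day 0. Genes of at least 1 CPM on average gave 2 higher for day 21 minus day 0 and 7 lower in controls at day 7 against day 0; limma voom gave 5 lower for day 21 minus day 7. A fit on the groups compared alone gave 1 higher at day 0. At an adjusted p under 0.01, 0 were higher at day 7, 3 for day 21 minus day 7 and 3 with roxadustat at day 21 against day 7. At 2-fold or more, 0 were higher at day 7, 1 at day 21, 3 for day 21 minus day 7 and 3 in controls at day 21 against day 7; 6 were lower in controls at day 7 against day 0, and 2 were higher and 4 lower with roxadustat at day 21 against day 7. Where fewer genes or libraries were used, the alternative's construction sets the change; otherwise the cause was not tested.

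With each library left out, 10 to 19 members were higher at day 0 (10 without roxadustat replicate 1) and 0 to 1 lower (1, Ptprc, without control replicate 2), 0 to 2 were higher at day 7, and 1 to 2 had a higher effect for day 21 minus day 0. For day 21 minus day 7, 3 to 5 were higher and 3 to 5 lower. With roxadustat, 1 to 2 were higher at day 7 against day 0 and 3 to 7 at day 21 against day 7 (3 without replicate 3 of day 21). The replicate block, with no pairing shown, gave 18 higher at day 0, 37 lower at day 7 and 37 lower at day 21; it ended the calls of Msr1 at day 0 (edgeR adjusted p = 0.0531) and of Plek for day 21 minus day 7 (0.0547) and no other named call. Chosen after seeing the data, a fit with control replicates 1 and 3 only at day 21 left every count within 1.5 times. Over a group, 3 counts correspond to 0.0364 to 0.106 CPM.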

Other observations

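F13a1, the coagulation factor XIII subunit made by monocytes and resident macrophages, was higher with roxadustat at day 0 (log2 fold change 2.21 ± 0.26 SE, edgeR adjusted p = 2.23e-06). It had 23.3 and 19.1 CPM in fresh roxadustat libraries, against 3.37 and 5.79 CPM in fresh control libraries, groups that did not overlap. S100a8 and S100a9, the calprotectin chains of neutrophils, moved the other way: S100a9 had 0.199 and 0.912 CPM with roxadustat, against 1.62 and 3.35 CPM in controls, at day 0 (edgeR adjusted p = 0.0242). Kit, the stem cell factor receptor found on mast cells and other cells, was lower with roxadustat at day 7 (log2 fold change -3.66 ± 0.34 SE, edgeR adjusted p = 8.09e-10) and higher at day 21 (1.15 ± 0.40 SE, edgeR adjusted p = 0.0138). Itgax, which encodes CD11c of dendritic cells and some macrophages, had 0.240, 0.189, 0.490 and 0.588 CPM in roxadustat cultures at day 7, against 7.63, 7.74, 7.84 and 9.07 CPM in control cultures (edgeR adjusted p = 2.7e-14).

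By group mean, 16 of the 43 members had their highest level in fresh roxadustat cells and 5 in fresh control cells, 1 (Cd14) in roxadustat cultures of day 7 and 12 in control cultures of day 7, and 0 in roxadustat cultures of day 21 and 9 in control cultures of day 21. A mean of at least 1 CPM was reached by 36 members in fresh roxadustat cells and 30 in fresh control cells, and by 11 in roxadustat and 34 in control cultures on each culture day. The ratio of Gpnmb to Lyz2, from counts summed over the libraries of a group, not corrected for length and so only to be set between groups, was 0.0128 in roxadustat and 0.0499 in control libraries at day 0. In cultures it was 6.03 with roxadustat and 0.91 in controls (day 7), and 3.24 with roxadustat and 1.00 in controls (day 21).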
